A study of Mus musculus with 3 samples.

Results

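The galanin, CGRP, tachykinin and nociceptin systems were followed in single cells sorted from the mouse heart atria, where the intrinsic cardiac ganglia lie. They comprised 10 genes of 32943 listed in at least 1 of 3 count matrices, and all 10 were listed in each matrix. The 5 peptide precursor genes were Gal, Calca, Calcb, Tac1 and Pnoc. The 5 receptor genes were Galr1, Calcrl, its partner Ramp1, Tacr1 and Oprl1. The genes were chosen by name, with no measured value in the rule, and were read in neurons, in neuron classes and in marker-gated other cells of each library.

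All mice carried the genotype Baf53b-cre;lox-GFP, in which Cre driven by the promoter of Actl6b (Baf53b), a neuronal chromatin remodelling gene, switches on GFP. The series' design text calls the line Baf53bL10-GFP. Green cells were sorted by flow cytometry and sequenced with the Chromium 3′ V3 kit as 3 libraries: pooled ganglia (mixed, labelled 2 months of age), ganglia dissected from the anterior atria (3 months) and from the posterior atria (4 months), each of both sexes. No treatment was given. The protocol names 10 mice, but no source states how many went into each library or whether libraries share animals. Region is 1 library each and cannot be told apart from the labelled age or the preparation, so differences between regions carry no test. Tests compare groups of cells within libraries, over the 3 libraries, and their p-values measure only the spread between these libraries.

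A barcode counted as a neuron with at least 10000 unique molecular identifiers (UMIs, each a counted RNA molecule) and a UMI each of Snap25, Prph and Stmn2. This held for 1998 of 2829 mixed, 1315 of 2256 anterior and 1447 of 3276 posterior barcodes, with median depths of 57062.5, 39854 and 57151 UMIs. Of these, 97.44% to 99.95% had at least 6 of 8 neuron markers, and 86.18% to 93.29% had Actl6b. The 8 include the 3 genes of the rule and Actl6b, whose promoter drives the sorted GFP, so most of this check restates the selection. Between 2 and 3 barcodes were shared by any pair of libraries, and 1 of them was a neuron in both. Another 74 mixed, 290 anterior and 579 posterior barcodes had neuron markers at lower depth and were not counted as neurons. Levels below are UMIs of a gene per 10000 UMIs of the cells named, and intervals are 95% exact intervals for counting error only. Capture differs between genes, so each gene is compared with itself.

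Galanin is a neuropeptide of autonomic and sensory neurons that acts on Gi-coupled receptors, of which GALR1 is one, and is known in the heart as a peptide of sympathetic nerves that restrains vagal acetylcholine release. CGRP, a vasodilator released mainly by sensory fibres, is encoded by Calca (which also encodes calcitonin) and Calcb, and its receptor forms from CALCRL and RAMP1. With RAMP2 or RAMP3 in place of RAMP1, CALCRL binds adrenomedullin. Tac1 encodes substance P and neurokinin A, and Tacr1 the receptor that prefers substance P. Pnoc encodes nociceptin, an opioid-like peptide that dampens transmitter release through the receptor encoded by Oprl1.

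On GRCm38 with the GENCODE vM21 annotation, Gal lies at chr19:3409915-3414544 (minus strand), Calca at chr7:114631478-114636357 (minus) and Calcb at chr7:114718643-114723365 (plus). Tac1 lies at chr6:7554879-7565834 (plus), Pnoc at chr14:65400673-65425472 (minus), Calcrl at chr2:84330626-84425411 (minus) and Ramp1 at chr1:91179822-91225196 (plus). Tacr1 lies at chr6:82402334-82560104 (plus) and Oprl1 at chr2:181715016-181720985 (plus). None of these 9 genes overlaps another annotated gene. Calca and Calcb are relatives whose longest shared stretch is 61 bases, and 12 of 1678 words of 50 bases in Calca transcripts also occur in Calcb, 1 of them in the last 300 bases that a 3′ kit reads. Counts per gene do not separate calcitonin from CGRP.

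The 250 bases before the start are shown for Gal and Ramp1, which were higher in the same neuron class as described below, and for Calca, whose difference in that comparison did not pass. They come from RefSeq on GRCm38.p6, each written 5′ to 3′ on the gene's own strand, at chr19:3414545-3414794 (minus), chr1:91179572-91179821 (plus) and chr7:114636358-114636607 (minus). Capitals mark TGACG, the core of the cyclic AMP response element, which also lies inside the full element TGACGTCA.
Gal: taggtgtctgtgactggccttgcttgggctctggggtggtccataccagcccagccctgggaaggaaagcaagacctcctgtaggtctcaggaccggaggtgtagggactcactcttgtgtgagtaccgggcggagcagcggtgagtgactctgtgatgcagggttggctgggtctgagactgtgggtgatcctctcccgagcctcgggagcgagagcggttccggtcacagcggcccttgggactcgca
Ramp1: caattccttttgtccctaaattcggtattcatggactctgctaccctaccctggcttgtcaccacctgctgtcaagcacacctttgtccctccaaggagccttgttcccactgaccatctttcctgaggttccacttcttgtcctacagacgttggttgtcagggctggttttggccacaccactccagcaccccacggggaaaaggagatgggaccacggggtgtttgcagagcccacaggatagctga
Calca: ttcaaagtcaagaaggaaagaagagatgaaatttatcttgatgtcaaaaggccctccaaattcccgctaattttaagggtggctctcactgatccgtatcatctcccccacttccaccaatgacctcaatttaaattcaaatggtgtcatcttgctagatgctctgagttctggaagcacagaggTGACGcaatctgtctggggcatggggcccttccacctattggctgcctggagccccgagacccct
On either strand, TGACG was found once before Calca, 65 bases upstream of the start, and not in the Gal and Ramp1 windows. It occurs in 17.8% of 32851 windows of the same length, TGACGTCA in 1.55% and TATAAA in 12.4%, and neither of the last pair was found in these 3 windows. The Tac1 window, not shown because it overlaps an annotated exon, had TGACG at 197 and 43 bases, and Tac1 was also higher in that class. Tacr1, also not shown, had it at 226 bases, and the Calcrl and Oprl1 windows had none. A match is a description of letters, not of a binding site.

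Galanin RNA was widespread at low levels and concentrated in a minority of neurons. Gal was at 0.227 UMIs per 10000 in mixed neurons (interval 0.218 to 0.236), 0.127 in anterior (0.117 to 0.137) and 0.357 in posterior neurons (0.344 to 0.370). The posterior library was the highest and the anterior the lowest, with no overlap of their counting intervals. At least 1 Gal UMI was seen in 28.03%, 19.24% and 37.39% of neurons. Satellite glia or Schwann cells, which should lack galanin, had one in 0 of 88, 0 of 151 and 2 of 135 cells, but at median depths of 3048.5, 2198 and 4990 UMIs. With every cell thinned to 2000 UMIs, the shares were 3.45%, 2.36% and 4.42% of neurons against 0 of 66, 0 of 82 and 1 of 114 glia. The glial numbers are small, so a difference at equal depth is only loosely bounded.

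A neuron was called positive for a gene with at least 2 UMIs and at least 1 UMI per 10000. Gal-positive neurons numbered 129 (mixed, 6.46%), 36 (anterior, 2.74%) and 135 (posterior, 9.33%), with median levels of 1.666, 1.498 and 1.566. Their depth was near that of other neurons in the mixed and posterior libraries (58765 against 56983 and 59537 against 57054 UMIs) and lower in the anterior (34856.5 against 39893). A single posterior neuron held 441 of 2875 Gal UMIs (15.34%), without which the posterior level was 0.302.

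Pnoc, the nociceptin precursor, was at 0.0663 in mixed, 0.0653 in anterior and 0.123 in posterior neurons, and positive neurons numbered 41 (2.05%), 28 (2.13%) and 47 (3.25%). The mixed and anterior values were alike and the posterior one was higher. No Pnoc UMI was found in the glia of any library. Calcb was at 0.0609, 0.0472 and 0.0678, with a UMI in 16.47%, 11.41% and 19.14% of neurons but only 5, 6 and 5 positive neurons, so it was spread thinly over many cells. Calcb UMIs in glia numbered 0, 0 and 1. Glia were far shallower than neurons, as given for Gal, so these low counts of Pnoc and Calcb do not show absence.

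Tac1 showed the opposite shape, with few cells carrying most of it. It was at 0.141 in mixed, 0.154 in anterior and 0.131 in posterior neurons, and 6.41%, 6.77% and 6.01% of neurons had a UMI. In the shallower glia 1 of 88, 0 of 151 and 0 of 135 cells had one, which is not a comparison at equal depth. Positive neurons numbered 48 (2.40%), 33 (2.51%) and 34 (2.35%). The 1% of neurons with the most Tac1 held 72.13%, 76.6% and 74.22% of its UMIs, whereas for Gal the same share of neurons held 26.99%, 32.22% and 30.71%. A single anterior neuron held 370 of 799 Tac1 UMIs (46.31%), at 61.4 UMIs per 10000.

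Calca had few UMIs in neurons. It was at 0.00240 (28 UMIs), 0.00308 (16 UMIs) and 0.0145 (117 UMIs), and positive neurons numbered 0, 0 and 4. Of the 4 posterior ones, 2 had an Epcam UMI, against 18 of all 1447 posterior neurons, and Epcam marks epithelial cells.

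Among the receptors, Galr1 was highest in the anterior library, where Gal was lowest. It was at 0.0143 in mixed, 0.0491 in anterior and 0.0124 in posterior neurons, with 13, 27 and 6 positive neurons. Ramp1, the accessory protein that makes CALCRL a CGRP receptor, was at 0.160, 0.0954 and 0.177, with a UMI in 40.39%, 21.75% and 38.84% of neurons. Calcrl itself was at 0.00412, 0.00270 and 0.00484, from 48, 14 and 39 UMIs, of which 11 posterior UMIs lay in the 74 neurons with neither Npy nor Ddah1 at the limits given below. Of the neurons, 12, 3 and 5 had a UMI of both Calcrl and Ramp1.

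Oprl1, the nociceptin receptor, was at 0.0925, 0.103 and 0.103, with a UMI in 38.69%, 32.85% and 39.74% of neurons and in 0 of 88, 0 of 151 and 0 of 135 glia. At 2000 UMIs per cell the shares were 1.65%, 1.98% and 3.32% of neurons against 0 of 66, 0 of 82 and 0 of 114 glia. The exact upper limits of the glial shares are 5.436%, 4.399% and 3.184%, so the posterior share of neurons lay above its limit and the mixed and anterior shares did not. The lowest and highest level of Oprl1 were closer in ratio than those of the other 8 genes detected in every library. Tacr1 had 1 UMI in mixed neurons and 0 in the others, where a count of 0 allows, taken as 3 counts, up to 0.000578 UMIs per 10000 (anterior) and 0.000372 (posterior). Substance P receptor RNA was therefore not detectable in neurons at this depth beyond 1 molecule.

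**Figure D1:**
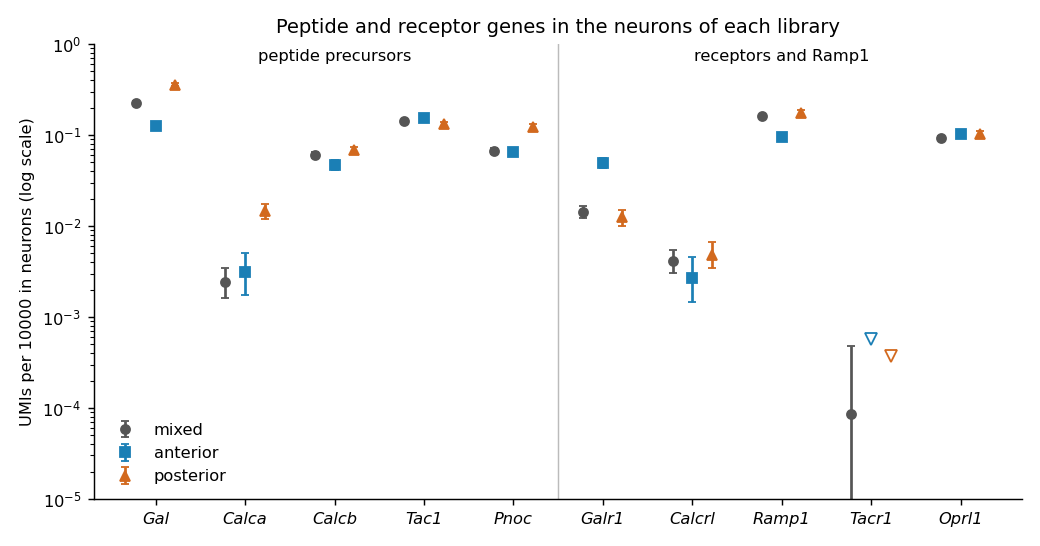
Level of each of the 10 genes in the neurons of the mixed, anterior and posterior library, as UMIs per 10000 on a log axis. Points are library values, bars 95% exact Poisson intervals (counting error only), and open triangles mark genes with 0 UMIs, drawn at the level that 3 counts would give. Gal runs from 0.127 (anterior) to 0.357 (posterior), Galr1 is highest in the anterior library, and Oprl1 is nearly level.

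Neurons were then divided by genes that are not members of these systems. Nos1 neurons, with the neuronal nitric oxide synthase at 1 UMI per 10000 or more, numbered 55, 84 and 61 in the mixed, anterior and posterior libraries. Of the others, Npy neurons (neuropeptide Y at 4 or more) numbered 1587, 1108 and 876. Npy-low Ddah1 neurons (Npy under 4, and at least 1 of Ddah1, an enzyme that breaks down a natural nitric oxide synthase inhibitor) numbered 336, 103 and 436. A remainder with neither numbered 20, 20 and 74, and in the posterior library their median depth was 14697 UMIs.

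Gal was highest in the Npy-low Ddah1 neurons of every library, at 1.01 (mixed), 0.606 (anterior) and 0.687 (posterior), against 0.0677, 0.0771 and 0.202 in Npy neurons and 0.0650, 0.198 and 0.185 in Nos1 neurons. The remainder was at 0.0949, 0.146 and 0.389. The Npy-low Ddah1 values did not overlap those of the others, while the ranges of Npy neurons, Nos1 neurons and the remainder overlapped. The class made up 16.82%, 7.83% and 30.13% of neurons and held 109 of 129, 17 of 36 and 105 of 135 Gal-positive neurons. Within the class, 32.44% of mixed, 16.50% of anterior and 24.08% of posterior neurons were Gal-positive. Those that also had Mucl1, a small secreted mucin-like protein, were at 1.74 in the mixed (33 cells) and 1.09 in the posterior library (31 cells), against 0.932 and 0.657 without Mucl1, and the anterior library had 1 such cell.

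Pnoc was high in the same class. It was at 0.344, 0.555 and 0.335 in Npy-low Ddah1 neurons, against 0.00844, 0.0111 and 0.0257 in Npy neurons and 0.0268, 0.101 and 0.0132 in Nos1 neurons. The remainder was at 0.142, 0.452 and 0.0629, on 9, 31 and 11 UMIs, and overlapped both Npy-low Ddah1 and Nos1 neurons. The Npy-low Ddah1 class was highest in each library and held 35 of 41, 21 of 28 and 45 of 47 Pnoc-positive neurons. Calcb was at 0.197, 0.165 and 0.128 in the class, 0.0306, 0.0363 and 0.0411 in Npy neurons and 0.00382, 0.00374 and 0.0165 in Nos1 neurons, an order with no overlap between the 3 classes. In the remainder it was at 0.554, 0.204 and 0.0629 (35, 14 and 11 UMIs), above the Npy-low Ddah1 class in the mixed and anterior libraries. Among Npy neurons, Calcb was at 0.0755, 0.0736 and 0.0626 in those with Edn3, the endothelin 3 gene, and at 0.00228, 0.0170 and 0.00696 in those with Tspan8, with no overlap.

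Ramp1 was at 0.434, 0.362 and 0.387 in the class, 0.260, 0.195 and 0.165 in Nos1 neurons and 0.100, 0.0633 and 0.0727 in Npy neurons, also without overlap. The remainder, at 0.127, 0.161 and 0.166, overlapped Nos1 neurons. Nos1 neurons with Vip, the vasoactive intestinal peptide gene, were at 0.568, 0.272 and 0.434, a range that overlaps that of the Npy-low Ddah1 class. Nos1 neurons without Vip were at 0.0789, 0.0125 and 0.0432 (13, 1 and 9 UMIs), below Npy neurons in each library.

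Npy-low Ddah1 neurons were compared with Npy neurons over the 3 libraries with edgeR's quasi-likelihood test, the library kept as a block, with Benjamini-Hochberg adjustment over all genes tested and a threshold of 0.05. Of 13679 genes tested, 29.0% passed. Of the 10 members 8 entered the test, and 5 passed, all higher in Npy-low Ddah1 neurons of all 3 libraries. The log2 fold change was 4.74 (SE 0.23) for Pnoc (adjusted p = 2.07e-10), 2.82 (SE 0.25) for Gal (3.16e-07), 2.28 (SE 0.09) for Ramp1 (1.91e-11) and 2.17 (SE 0.15) for Calcb (1.63e-08). Precursors of galanin, nociceptin and CGRP were thus higher in the same class as the CGRP receptor partner.

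Tac1 was also higher, by 1.23 (SE 0.18, adjusted p = 7.77e-05), from 0.213, 0.266 and 0.127 against 0.109, 0.05004 and 0.0684. Single cells held much of it: 208 of 419 mixed, 63 of 111 anterior and 243 of 319 posterior Tac1 UMIs of the class lay in 1 neuron each. With the Npy limit at 2 in place of 4 the fold change was 0.14 and did not pass. Galr1 (-1.36, adjusted p = 0.0554, or 0.044 with edgeR's bias-adjusted fit), Oprl1 (-0.25, 0.0946) and Calca (0.60, 0.56) did not pass, and Calcrl and Tacr1 were too low to be tested.

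Of the 30 other genes of peptide signalling, processing and transmitter synthesis that were listed and were not used for the classes, 16 entered this test, with 2 higher and 7 lower and a median log2 fold change of -0.11, against -0.001 over all genes. Dbh, which makes noradrenaline, rose by 1.97 and Pam, the enzyme that amidates peptides, galanin, CGRP and substance P among them, by 0.31. The peptide precursors Adm (-3.52), Tac2 (-3.72) and Cartpt (-3.096) fell, as did the granule protein gene Scg2 (-3.09), the convertase gene Pcsk2 (-1.57), Th (-0.88), which starts catecholamine synthesis, and the opioid receptor gene Oprm1 (-0.71). Among genes that reached 50 CPM in the higher group and moved 1 way in all 3 libraries, the 5 with the largest rise were Mucl1, Bmp3, Chodl, AA467197 and Cdh8, and Cartpt, Scg2 and Ptger3 were among those with the largest fall. The fold change was 7.30 for Mucl1 and -3.096 for Cartpt.

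**Figure D2:**
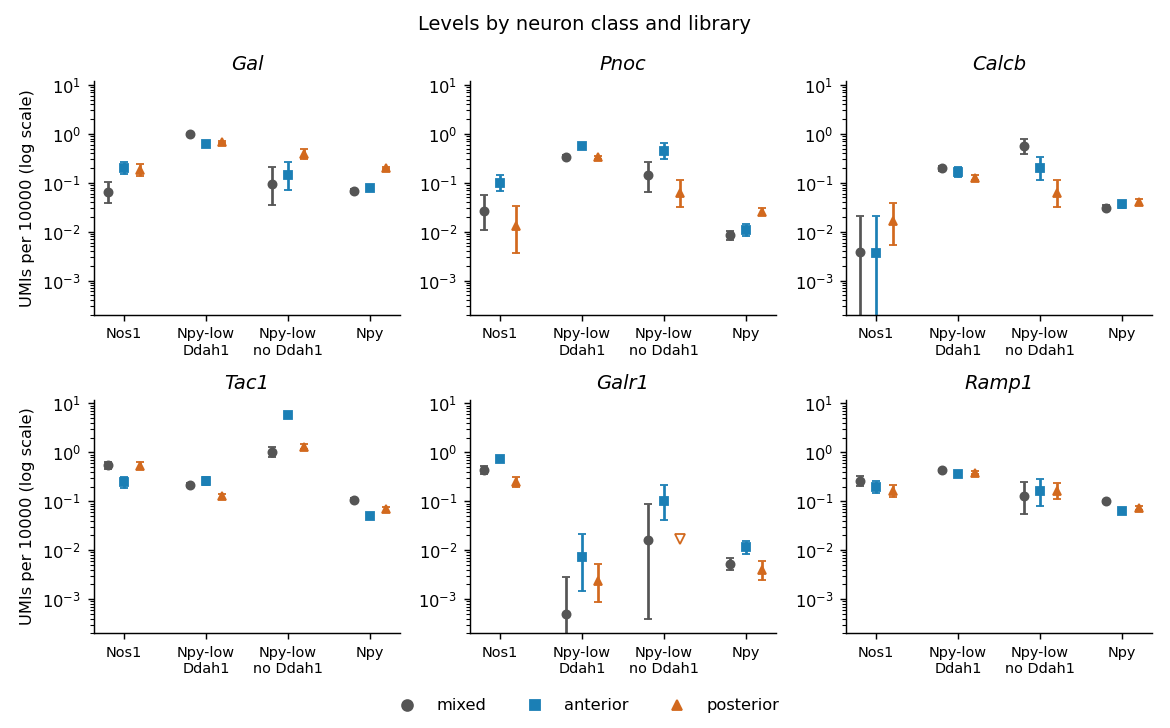
Levels of Gal, Pnoc, Calcb, Tac1, Galr1 and Ramp1 in 4 neuron classes of each library, as UMIs per 10000 on a log axis, with 95% exact Poisson intervals as bars. Open triangles mark 0 UMIs at the level that 3 counts would give. Gal, Pnoc and Calcb are higher in Npy-low Ddah1 than in Npy neurons (Gal at 0.606 to 1.01), Calcb and Tac1 reach further in the small class without Ddah1, and Galr1 peaks in Nos1 neurons.

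Nos1 neurons, mainly those with Vip, carried the galanin receptor and a different peptide. Galr1 was at 0.440 (mixed), 0.726 (anterior) and 0.244 (posterior) in them, against 0.00534, 0.0115 and 0.00395 in Npy neurons, with no overlap. In the Nos1 neurons that also had Vip it was at 1.18, 0.988 and 0.645, and 12 of 23, 26 of 61 and 4 of 23 of them were Galr1-positive. In those without Vip it was at 0.00607, 0.113 and 0.0624, and 0 of 32, 0 of 23 and 1 of 38 were positive. All 46 Galr1-positive neurons of the 3 libraries had Npy at 4 or more, while 12 of 13, 26 of 27 and 5 of 6 had Nos1 and 13, 27 and 4 had Vip. They were shallower than other neurons, with median depths of 36493, 27007 and 43956.5 UMIs against 57171, 40071 and 57171.

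Tac1 was at 0.539, 0.247 and 0.532 in Nos1 neurons, above the 0.109, 0.05004 and 0.0684 of Npy neurons in every library. In the mixed library 127 of the 141 UMIs lay in 1 cell, at 19.5 UMIs per 10000. The higher level of mixed Nos1 neurons rests on that cell. Nos1 neurons with Vip were at 1.46, 0.331 and 1.15, and those without Vip at 0, 0.05009 and 0.250. The small remainder with neither Npy nor Ddah1 was higher than Nos1 neurons as a whole, at 1.03, 5.84 and 1.31, but 370 of its 400 anterior UMIs lay in 1 cell. Positive neurons were nevertheless most often in the large Npy class, with 31 of 48 (mixed), 16 of 33 (anterior) and 15 of 34 (posterior), beside 2, 10 and 10 in Nos1 neurons.

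Nos1 neurons were compared with Npy neurons in the same way, and 12.2% of 13079 genes passed. Of the members 8 entered, all but Calca and Tacr1, and 5 passed by edgeR's quasi-likelihood test. Galr1 was higher by a log2 fold change of 6.06 (SE 0.20, adjusted p = 1.04e-14), Tac1 by 2.50 (SE 0.14, 6.03e-11) and Ramp1 by 1.34 (SE 0.15, 1.69e-06), each in 3 of 3 libraries. For Tac1 the mixed rise rests on the 1 cell with 127 of 141 UMIs. The fit took Nos1 neurons with and without Vip together, and those without Vip had Ramp1 below Npy neurons in each library. Calcrl was higher by 2.18 (SE 0.62, adjusted p = 0.0242), but from 14 UMIs in Nos1 neurons. Without the mixed or without the posterior library it no longer passed (2.42 and 1.72). In Npy neurons Calcrl was at 0.00438, 0.00225 and 0.00375, so it met the filter on low counts through the Nos1 sums, where it was high. Galr1 also needed the Nos1 sums to meet that filter. A higher level in Nos1 neurons was thus part of how both entered, and these calls are a description.

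Calcb was lower by 2.16 (log2 fold change -2.16, SE 0.45, adjusted p = 0.00225), from 1, 1 and 5 UMIs in Nos1 neurons, and no longer passed without likely doublets (-1.53). Pnoc (1.58, adjusted p = 0.0515), Gal (0.37, 0.344) and Oprl1 (0.06, 0.896) did not pass. Pnoc was higher in Nos1 neurons of the mixed and anterior libraries and lower in those of the posterior. It passed in 6 of the alternatives tried, with fold changes from 1.54 to 2.55, and Gal passed in 1, without neurons that had an Epcam UMI (0.75).

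In the list of 30 pathway genes 17 entered this comparison, 8 were higher and 3 lower, and the median was 0.38 against -0.018 over all genes. Vip rose by 6.80, Oprd1 by 3.09, Scg2 by 2.55 and Tac2, which encodes neurokinin B, by 2.19. Oprd1 had only 24, 12 and 20 UMIs over all mixed, anterior and posterior neurons, and it too entered through the Nos1 sums. The processing genes Pcsk2 (1.17), Ece1 (0.81) and Pcsk1 (0.39) rose, as did Ramp2 (0.94), whose adjusted p was 0.0399 and, with the bias-adjusted fit, 0.0695. Among genes at that CPM limit the largest rises were in Vip, C1ql2, Pcp4l1, Ly6h and Fst, and the largest falls in Lmo1, Prr15, Fxyd2, Sv2c and Tbx20. Th (-1.19), Cartpt (-0.61) and Pam (-0.28) fell. Oprl1 was level over the classes, at 0.130, 0.101 and 0.0990 in Nos1, 0.0848, 0.0646 and 0.0965 in Npy-low Ddah1 and 0.0934, 0.106 and 0.107 in Npy neurons, and these ranges overlapped.

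**Figure D3:**
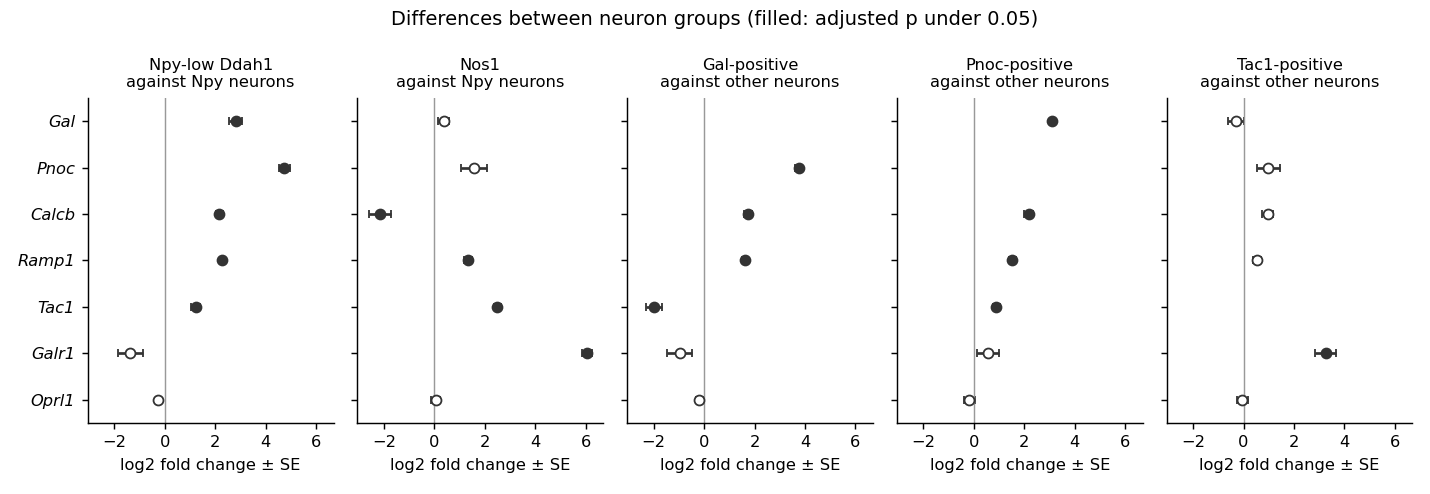
Log2 fold changes (edgeR quasi-likelihood fit, bars SE, filled points adjusted p under 0.05) of 7 genes in 5 comparisons of neuron groups over the 3 libraries. A gene that defined a group is left out of that panel. Pnoc, Gal, Calcb and Ramp1 lie to the right in the Npy-low Ddah1, Gal-positive and Pnoc-positive panels, Galr1 in the Nos1 (6.06) and Tac1-positive (3.25) panels, and Oprl1 lies near 0 in all 5.

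Overlap in single cells followed these classes. Between 86.04% and 93.23% of neurons were positive for none of the 5 peptide precursors, while 149 mixed, 76 anterior and 179 posterior neurons were positive for exactly 1. Exactly 2 were seen in 34, 12 and 23 neurons, and 3 in 2 mixed and 1 anterior neuron. Gal and Pnoc were positive together in 27 mixed, 9 anterior and 23 posterior neurons, where the product of their shares gives 2.65, 0.767 and 4.38 cells. These were 20.93%, 25% and 17.04% of Gal-positive and 65.85%, 32.14% and 48.94% of Pnoc-positive neurons.

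Nearly all of them lay in Npy-low Ddah1 neurons, with 26, 9 and 22 cells. The product of shares within that class is 11.4, 3.47 and 10.8, so the excess was smaller there. Gal and Tac1 met in 2, 1 and 0 neurons, against 3.1, 0.903 and 3.17 from the product of shares. Tac1 and Pnoc met in 7, 2 and 0 neurons, against 0.985, 0.703 and 1.1, and Tac1 and Galr1 in 1, 4 and 3, against 0.312, 0.678 and 0.141. Gal and its receptor gene Galr1 met in 1, 2 and 0 neurons, against 0.839, 0.739 and 0.56.

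Gal-positive neurons were compared with all other neurons, and 13.0% of 13515 genes passed. Pnoc was at 0.570, 0.834 and 0.598 in Gal-positive neurons against 0.0312, 0.0451 and 0.0727 in the others, a log2 fold change of 3.75 (SE 0.15, adjusted p = 2.8e-16 by edgeR's quasi-likelihood test). Calcb rose by 1.74 (SE 0.16, adjusted p = 6.04e-09) and Ramp1 by 1.61 (SE 0.10, 4.57e-12), each in 3 of 3 libraries. Galr1 (-0.97, adjusted p = 0.252), Oprl1 (-0.19, 0.469) and Calca (1.57, 0.109) did not pass.

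Tac1 was lower in Gal-positive neurons, at 0.0658, 0.0745 and 0.00130 against 0.146, 0.157 and 0.146 (log2 fold change -1.99, SE 0.31, adjusted p = 2.16e-05). With DESeq2 the change was -2.43 and did not pass, nor did it with the stricter limit for a positive cell (-0.82) or with the looser one of 1 UMI (-0.28). Of 32 pathway genes 18 entered the test, 4 higher and 8 lower, with a median of -0.37 against -0.003 over all genes. Dbh (1.51), Vip (1.18), Pam (0.44) and Cpe, a carboxypeptidase that trims peptide precursors (0.24), rose. Npy (-2.19), Pcsk2 (-1.91), Adm (-1.73), Scg2 (-1.47), Nos1 (-1.32), Cartpt (-1.29), Tac2 (-1.22) and Th (-0.65) fell.

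At the 50 CPM limit, Mucl1, Pnoc, Nrp2, Bmp3 and Ecel1 had the largest rise in Gal-positive neurons, and Npy, Maob, Ptger3 and Pcdh9 were among those with the largest fall. Ddah1 reached 1 UMI per 10000 in 91.47%, 75% and 88.15% of Gal-positive neurons, against 16.21%, 10.95% and 33.54% of the others. Dbh did so in 65.12%, 38.89% and 75.56%, against 16.64%, 20.88% and 35.29%. Chat, which makes acetylcholine, did so in 3.101%, 2.778% and 7.41%, against 8.19%, 8.60% and 13.34%.

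The comparison was repeated within Npy-low Ddah1 neurons, where 1.38% of 11472 genes passed. Pnoc was still higher, by 1.73 (SE 0.09, adjusted p = 2.12e-14), and Tac1 lower, by 3.21 (log2 fold change -3.21, SE 0.27, 1.81e-09), with 34 UMIs in the Gal-positive and 815 in the other neurons. The single neurons with 208, 63 and 243 Tac1 UMIs were all among the others, as each exceeds 34, and the contrast was not fitted without them. Ramp1 rose by 0.36 (SE 0.09, adjusted p = 0.04), and with edgeR's bias-adjusted quasi-likelihood fit its adjusted p was 0.0667. Calcb did not pass (0.41, adjusted p = 0.182). Of 15 pathway genes in this test Dbh (0.29) rose and Pcsk2 (-1.27), Th (-0.49) and Cartpt (-0.23) fell, Th without passing by the bias-adjusted fit (0.0739).

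Within Npy neurons 2.30% of 12959 genes passed, and here the estimated spread had no gene-to-gene variation (infinite prior degrees of freedom), so the bias-adjusted p is given. Pnoc was higher in the Gal-positive cells by 3.82 (SE 0.51, bias-adjusted adjusted p = 9.6e-07) and Calcb by 1.75 (SE 0.41, 0.0141). Ramp1 (1.04, 0.0905) did not pass by that fit, though it did by the other (0.0188), and Tac1 (-0.20) passed neither. Among 16 pathway genes Vip (3.61), Dbh (1.37) and Pam (0.38) were higher and Scg2 (-0.59) lower, of which Pam (0.204) and Scg2 (0.481) did not pass by the bias-adjusted fit. Vip was at 5.98 in the 24 posterior Gal-positive Npy neurons but 0.00916 in the 19 mixed ones, where it was below the other cells.

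Pnoc-positive neurons were compared with the others in the same way. Of 13380 genes 11.6% passed, again with infinite prior degrees of freedom, and the bias-adjusted values are given. Gal was at 2.43, 1.45 and 1.33 in Pnoc-positive neurons against 0.185, 0.100 and 0.324 in the others, a log2 fold change of 3.11 (SE 0.09, adjusted p = 4.33e-22). Calcb rose by 2.18 (SE 0.18, adjusted p = 1.25e-14) and Ramp1 by 1.53 (SE 0.13, 2.42e-13), in 3 of 3 libraries.

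Tac1 was higher by 0.90 (SE 0.15, adjusted p = 0.0209), with the rise in the mixed and anterior libraries. It was at 0.610, 0.241 and 0.00730 in Pnoc-positive neurons against 0.132, 0.153 and 0.136 in the others. Without the mixed library the direction turned (-0.86), with DESeq2 the change was 0.00, and with the stricter limit for a positive cell it was -0.19. Galr1, Calca and Oprl1 did not pass (0.55, 0.53 and -0.18).

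Of 18 pathway genes tested in Pnoc-positive neurons, 4 rose (Vip by 2.43, Dbh by 0.97, Pam by 0.53 and Cpe by 0.30) and 7 fell, among them Npy (-3.27) and Th (-2.81), with a median of -0.41 against -0.017 over all genes. Th reached 1 UMI per 10000 in 1 of 41, 1 of 28 and 2 of 47 Pnoc-positive neurons, against 25.55%, 28.44% and 28.79% of the others. Dbh did so in 41.46%, 42.86% and 78.72%, against 19.32%, 20.9% and 37.71%. At the 50 CPM limit, the largest rises were in Gal, Nrp2, Bmp3, Vip and Serpini1, and Npy, Th and Ddc were among the largest falls.

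Within Npy-low Ddah1 neurons 1.07% of 10377 genes passed. Gal was higher in the Pnoc-positive cells by 1.57 (SE 0.11, adjusted p = 1.75e-14 by edgeR's quasi-likelihood test) and Calcb by 0.79 (SE 0.17, 0.00507), while Ramp1 (0.21, 0.77) and Tac1 (-0.86, 0.354) did not pass. Of 14 pathway genes Vip rose by 3.41 and Pam by 0.35, and Th was lower by 2.47 on the log2 scale (-2.47). The Vip difference came mainly from the mixed library, with 1.47 against 0.0842, beside 0.0844 against 0.0661 in the anterior and 0.370 against 0.0519 in the posterior.

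Tac1-positive neurons were compared with the others as well, and 1.89% of 13382 genes passed. Galr1 was at 0.0626, 0.314 and 0.208 in them against 0.0131, 0.0430 and 0.00816, a log2 fold change of 3.25 (SE 0.41, adjusted p = 6.14e-04 by edgeR's quasi-likelihood test). Of the 7 members in the test other than Tac1 itself, 1 passed. Calcb (0.96, adjusted p = 0.0512), Pnoc (0.98, 0.472), Ramp1 (0.54, 0.203), Calcrl (1.11, 0.755), Gal (-0.30, 0.847) and Oprl1 (-0.06, 0.985) did not. Without the mixed library 570 genes passed in place of 253.

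Of 18 pathway genes Vip (3.68), Nos1 (2.49) and Scg2 (1.41) rose in Tac1-positive neurons, and Dbh (-1.81) and Cartpt (-0.745) fell, Scg2 and Cartpt without passing by the bias-adjusted fit (0.141 and 0.0808). The median of the 18 was 0.12 against -0.017 over all genes. Dbh reached 1 UMI per 10000 in 1 of 48, 1 of 33 and 3 of 34 of them, against 20.21%, 21.84% and 39.77% of other neurons. Vip did so in 16.67%, 36.36% and 26.47%, against 2.15%, 4.99% and 2.83%. Among genes at the 50 CPM limit, which Galr1 missed, Ifitm2, S100a16 and Fgf13, with Vip and Nos1, rose most, and Dbh, Efr3a, Elmo1, Syt2 and F2r fell most.

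Within Npy neurons, in which Nos1 was under 1 UMI per 10000 but not always at 0, 1.45% of 12994 genes passed, again with infinite prior degrees of freedom. Galr1 was higher in the Tac1-positive cells by 3.07 (SE 0.72, adjusted p = 0.0029, bias-adjusted 0.00639) from 16 UMIs, Calcb by 1.45 (SE 0.40, 0.0223, bias-adjusted 0.0403) and Pnoc by 3.84 (SE 0.49, bias-adjusted 8.77e-04). Gal did not pass (0.65, 0.329).

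Likeness across neurons was measured as the Pearson correlation of log2(UMIs per 10000 + 1), averaged over the 3 libraries (1998, 1315 and 1447 neurons), among 11522 genes with a UMI in at least 5% of neurons of every library. The points share library and depth, and the values are a description. Gal was most like Pnoc (0.49), Ddah1 (0.48), Bmp3 (0.43), Chodl (0.42) and AA467197 (0.40). Pnoc was most like Gal, Bmp3 (0.47), Chodl (0.45), Serpini1 (0.44) and Ddah1 (0.44), and Ramp1 like AA467197 (0.40), Chodl (0.39), Bmp3 (0.39), Ddah1 (0.37) and Hpca (0.36). Galr1 was most like Nos1 (0.62), Rtp1 (0.46), Cited1 (0.45), Fgf13 (0.43) and C1ql2 (0.40).

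Calcb reached 0.31 with Ddah1, and Tac1 0.30 with Syt6, 0.23 with Slit2 and 0.22 with Rspo2, the 3 genes above a correlation of 0.2. Oprl1 reached 0.25 with Dync1h1 and similar values with other abundant genes, and no gene reached 0.2 with Calca. Galr1, Calca, Calcrl and Tacr1 had a UMI in fewer than 5% of neurons of at least 1 library, so they could not appear as partners.

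Outside neurons, Calcrl and Ramp1 were highest in different cells. Cells that missed the neuron rule were gated by marker genes, and the classes with at least 10 cells in every library were compared with neurons in 1 edgeR fit over 5036 genes. The markers of the neuron list were also present: gated cells had a median of 0.5 to 2 of 8 in the mixed and anterior libraries and 3 to 4 in the posterior, chromaffin-like cells (4 to 4.5) and the 2 mixed cardiomyocyte-gated cells (1.5) aside. The part of neuron RNA in these levels was not tested. In each class a large share of genes passed, with 67.6% in satellite glia or Schwann cells, 67.7% in fibroblasts, 61.3% in endothelial cells, 57.2% in smooth muscle cells or pericytes, 62.2% in macrophages, 52.1% in lymphocytes and 37.0% in chromaffin-like cells, so a pass alone says little about a member. Of the 10 members only Calcrl and Ramp1 passed the filter on low counts. Gal, with more UMIs in neurons than either, did not, so both entered through the gated cells where they were high. A higher level outside neurons was thus part of how they entered: 9 of their 14 values passed, all higher, and the values below are a description.

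Calcrl was highest in endothelial cells. It was at 1.42 (mixed), 3.47 (anterior) and 1.66 (posterior) in endothelial-gated cells, with a UMI in 9 of 24, 18 of 33 and 16 of 31 cells, against 0.00270 to 0.00484 in neurons. The fitted log2 fold change was 8.81 (SE 0.82). Fibroblasts had 0.251, 0.198 and 0.0591, a fold change of 5.12 (SE 0.75), a pass that did not remain among cells without neuron gate genes. Glia and chromaffin-like cells had no Calcrl UMI.

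Smooth muscle cells or pericytes (5.12, 7 UMIs), lymphocytes (5.90, 5 UMIs) and macrophages (4.21, 4 UMIs) also passed for Calcrl. The first pair no longer passed without the mixed library (3.42 and 4.92), and macrophages no longer without the posterior (4.61).

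Ramp1 was highest in smooth muscle cells or pericytes, at 5.15, 3.91 and 2.79, with a UMI in 27 of 38, 9 of 15 and 12 of 23 cells, against 0.0954 to 0.177 in neurons. The log2 fold change was 4.499 (SE 0.54). Fibroblasts had 2.20 in the mixed library but 0.223 and 0.262 in the anterior and posterior, so their pass (2.26, SE 0.51) did not hold without the mixed library (0.85). Macrophages (1.94) and lymphocytes (2.27) passed as well, each no longer without the anterior or without the posterior library.

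Glia did not pass for Ramp1 (0.47, adjusted p = 0.535), at 0.309, 0.140 and 0.218. Endothelial cells had 1 Ramp1 UMI in all (-2.58, adjusted p = 0.241), and 0 of 24, 0 of 33 and 0 of 31 had both Calcrl and Ramp1, which allows shares of up to 14.25%, 10.58% and 11.22% with an exact Clopper-Pearson bound. Ramp2, which makes CALCRL an adrenomedullin receptor, was at 8.99, 9.67 and 7.88 in the same cells, a log2 fold change of 7.17 over neurons, and its peptide gene Adm did not pass there (-0.71, adjusted p = 0.457). Cells with both Calcrl and Ramp1 numbered 4, 0 and 0 among smooth muscle cells or pericytes and 5, 1 and 0 among fibroblasts.

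**Figure D4:**
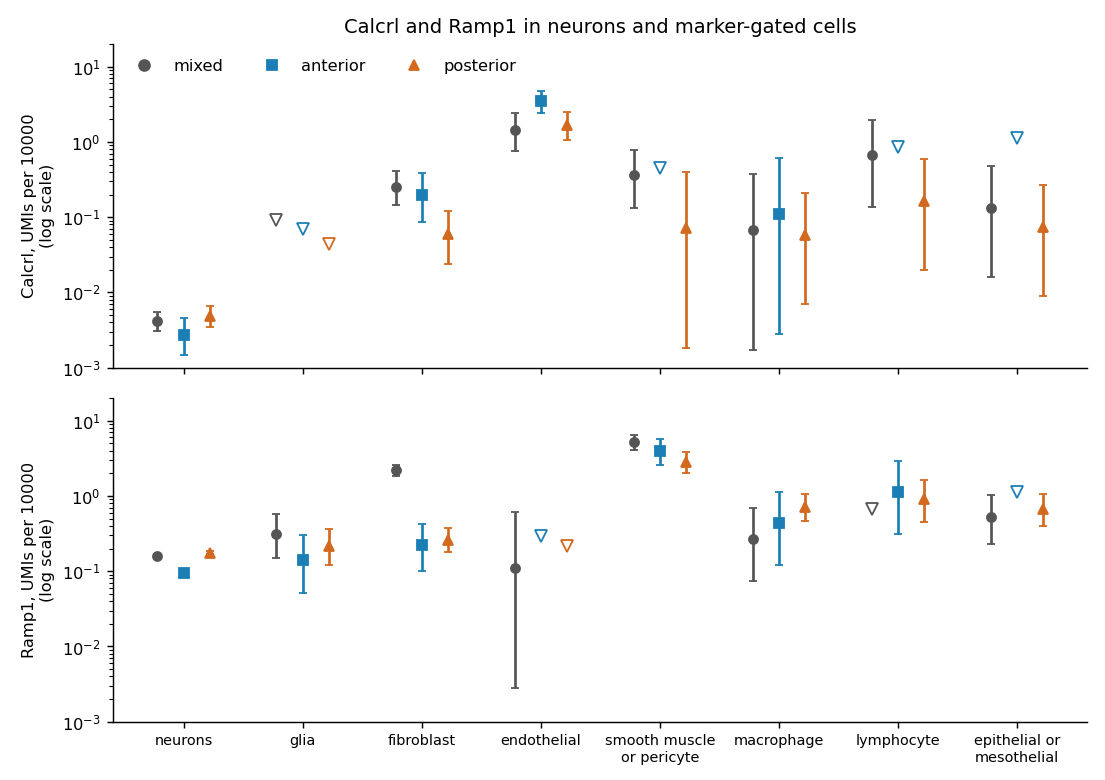
Calcrl (top) and Ramp1 (bottom) in neurons and 7 classes of marker-gated cells of each library, as UMIs per 10000 on a log axis with 95% exact Poisson intervals. Open triangles mark 0 UMIs at the level that 3 counts would give. Calcrl is highest in endothelial cells (1.42 to 3.47) and Ramp1 in smooth muscle cells or pericytes (2.79 to 5.15), and endothelial Ramp1 is at or near 0.

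Other members were scarce outside neurons. Gal had 11 mixed and 9 anterior UMIs in chromaffin-like cells (0.797 and 0.993) and 0 in the 10 posterior ones. Oprl1 had at most 1 UMI in any gated class of a library. Tac1 had 5, 3 and 18 UMIs in fibroblasts, and Tacr1 1 UMI each in posterior glia and epithelial-gated cells.

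Calca was carried by barcodes that mostly failed the neuron rule. At the same limit 3 mixed, 0 anterior and 64 posterior barcodes of any kind were Calca-positive and held 79.71%, 0% and 93.12% of the library's Calca UMIs. Of the 64 posterior ones, 4 were neurons by the rule, 25 had neuron markers at lower depth, 12 fell in the epithelial or mesothelial gate, 1 in the chromaffin-like gate and 21 in none. Their median depth was 6160 UMIs and their median Calca level 19.6 UMIs per 10000 (range 1.10 to 90.9).

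These barcodes shared genes that the limit did not use, chosen for naming after their values were seen. Of the 64, 58 had the epithelial gene Epcam and 60 the keratin gene Krt8, against 2.99% and 3.11% of all posterior barcodes. Resp18, a neuroendocrine granule gene, was seen in 60, against 55.68%. Prph was seen in 47 and Calcb, the other CGRP gene, in 2. All 3 mixed ones had Epcam, Krt8 and Resp18.

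Between regions, 53 of 8257 genes with at least 10 CPM (the standard depth-scaled count) in the higher library (0.642%) were at least 2-fold apart in neurons, all 53 higher in the posterior library. Of the 5 members at that level only Gal was, with a posterior to anterior ratio of 2.81 (interval 2.59 to 3.07), and 2.49 without the top cell of each library. With 1 library a region these ratios describe the libraries, and the number of neurons in a class and the RNA per neuron both enter them.

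Within Npy-low Ddah1 neurons the Gal ratio was 1.13 (0.994 to 1.30), within Nos1 neurons 0.932 (0.628 to 1.38) and within Npy neurons 2.62 (2.31 to 2.97). Without the top cells these ratios were 1.22 (1.06 to 1.41), 0.786 (0.434 to 1.41) and 1.58 (1.37 to 1.81). The share of Npy-low Ddah1 neurons was 7.83% (anterior) and 30.13% (posterior). Ramp1 was at 1.85 (1.67 to 2.05) over all neurons, 1.07 (0.902 to 1.28) in Npy-low Ddah1 and 1.15 (0.980 to 1.35) in Npy neurons. Calcb was at 1.44 (1.23 to 1.68) over all neurons, 0.774 (0.595 to 1.02) in Npy-low Ddah1 and 1.13 (0.917 to 1.40) in Npy neurons.

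Pnoc turned direction between classes. It was at 1.88 (1.66 to 2.13) over all neurons and 2.325 (1.66 to 3.30) in Npy neurons, but at 0.603 (0.521 to 0.700) in Npy-low Ddah1 and 0.131 (0.0332 to 0.375) in Nos1 neurons, the last from 27 anterior and 4 posterior UMIs. Tac1 was at 0.850 (0.775 to 0.934) over all neurons and 1.22 without the top cells. Within classes it was at 2.15 (1.61 to 2.91) in Nos1, 1.37 (1.15 to 1.62) in Npy and 0.477 (0.383 to 0.597) in Npy-low Ddah1 neurons. Without the top cells these class ratios were 2.155 (1.554 to 3.024), 1.308 (1.086 to 1.578) and 0.261 (0.179 to 0.383). Galr1 was lower in the posterior library in all neurons (0.253, 0.198 to 0.320), Nos1 neurons (0.336, 0.254 to 0.442) and Npy neurons (0.344, 0.194 to 0.587). Of the Nos1 neurons, 61 of 84 anterior and 23 of 61 posterior ones had Vip, with Galr1 at 0.988 and 0.645 in these. The part of this mix in the Nos1 ratio was not tested. Oprl1 was at 0.995 (0.891 to 1.11).

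**Figure D5:**
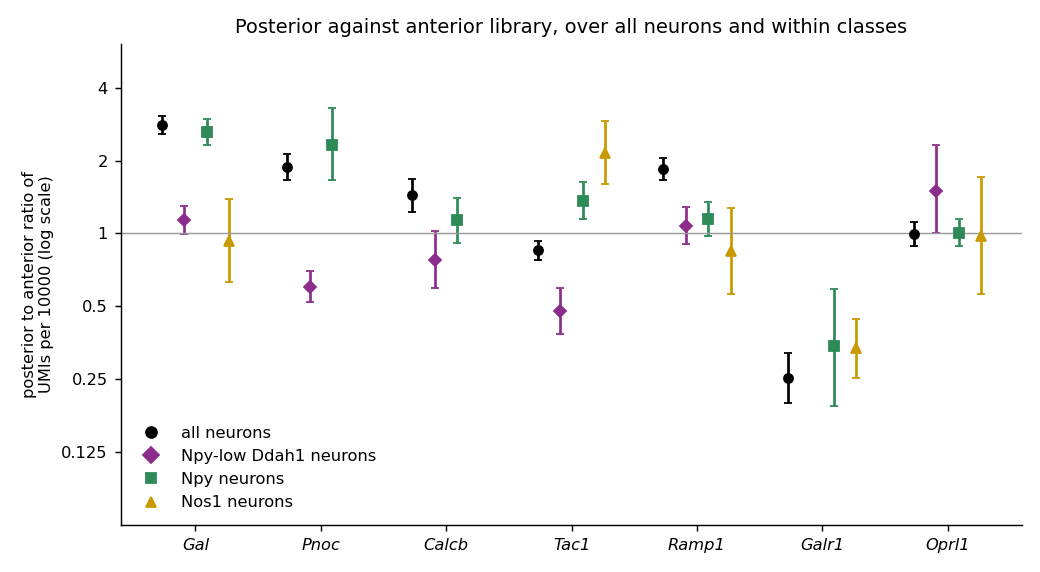
Posterior to anterior ratio of UMIs per 10000 for 7 genes, over all neurons and within 3 neuron classes, on a log axis with 95% exact conditional Poisson intervals (counting error only). Classes with fewer than 5 UMIs in either library are left out. Gal is at 2.81 over all neurons and 1.13 within Npy-low Ddah1 neurons, Galr1 lies below 1 in each class shown, and Oprl1 lies at 0.995 over all neurons.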

How the data were processed

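The deposited files hold UMI counts per gene and cell barcode for 3 libraries (whole numbers in sparse matrices of 31064, 32285 and 32285 features), made by the authors with Cell Ranger. The submitters' processing notes name Cell Ranger 7.1.0, Seurat 4.4.2 and mm10, while the matrix files carry version 3.1.0 (mixed) and 6.1.2 (anterior and posterior) per the file headers. The deposited barcodes hold 119825307, 55329380 and 86391988 UMIs (mixed, anterior, posterior).

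Neurons and neuron classes were set by the limits in the report. Other cells needed 1000 UMIs, 500 genes, at most 20% mitochondrial UMIs and 3 markers of 1 class, with a larger share of that class's markers than of any other. Doublets were not removed in the reported values. Counts were summed per library and class and tested with edgeR 4.0.16 (quasi-likelihood test, TMM factors, low-count filter, Benjamini-Hochberg adjustment at 0.05) in R 4.3.3, with the library as a block because both groups of cells came from the same libraries. That pairing comes from the design, not from replicate numbers. Scripts were tested on simulated data. Levels, intervals and correlations were computed in Python 3.11.15 (numpy 2.4.6, scipy 1.17.1). Intervals are exact Poisson, Clopper-Pearson or conditional Poisson at 95% and cover counting error only. Cells were thinned to 10000 or 2000 UMIs.

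Named genes were the 10 members, the 32 pathway genes (less Npy and Nos1 where these set the classes), up to 5 genes most alike, and the 5 largest rises and falls among called genes that moved 1 way in 3 libraries and reached 50 CPM. Some genes that met this rule are not reported here. The members and lists were chosen with earlier results of these data known. Alternatives were DESeq2 1.42.0, other filters, limits, depths and libraries left out.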

Additional observations from a re-analysis of the deposited data

Results flagged for a closer look

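Values of 2 genes went in opposite directions between libraries or classes, and these differences were not tested, since each library is 1 sample. The log2 ratio of Tac1, the substance P precursor gene, in Pnoc-positive over other neurons was 0.65 among anterior and -4.22 among posterior cells, the latter with Tac1 at 0.00730 UMIs per 10000 in 47 positive neurons. The posterior to anterior ratio of Tac1 was 2.151 in Nos1 neurons and 1.366 in Npy neurons but 0.4768 in Npy-low Ddah1 neurons. In the last class 1 posterior neuron held 243 of 319 UMIs, and without the top cell of each library the ratio was 0.2609. The posterior to anterior ratio for Pnoc, the nociceptin precursor gene, was 2.325 in Npy neurons but 0.1306 in Nos1 neurons, from 27 and 4 UMIs, and 0.6028 in Npy-low Ddah1 neurons.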

How the results depend on the processing

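Of 651 alternative values for single genes, 568 kept their direction and side of the threshold, 29 lost the call, 34 gained one and 20 turned direction. Of 178 for counts and shares, 114 stayed within their limits. The cause of the moves below was not tested, except that fewer cells or genes enter some fits by construction. Without the library block, which pairs the groups, called genes fell to 740 (Npy-low Ddah1), 246 (Nos1), 70 (Gal-positive), 10 (Tac1-positive) and 126 (Pnoc-positive); the block is part of the design. The fit without the block also ended the call for Tac1 in Npy-low Ddah1 neurons (1.35), for Calcb, Calcrl and Ramp1 in Nos1 neurons (-2.15, 2.15 and 1.33), for Calcb and Tac1 in Gal-positive neurons (1.75 and -1.85), for Galr1 in Tac1-positive neurons (3.09), for Tac1 in Pnoc-positive neurons (1.05) and for Ramp1 in lymphocytes (2.20). DESeq2 gave 1062 (Nos1), 1101 (Gal-positive) and 902 (Pnoc-positive). Leaving out 1 library gave 2793 to 4403 (Npy-low Ddah1), 838 to 1363 (Nos1), 1111 to 1959 (Gal-positive), 197 to 570 (Tac1-positive), 936 to 1373 (Pnoc-positive) and 7 to 9 member calls in other cells. With positivity at 1 UMI the counts were 3320 (Gal), 545 (Tac1) and 2974 (Pnoc), at 3 UMIs and 2 per 10000 they were 1005 (Gal) and 730 (Pnoc). Added after the data were seen, fits within Npy neurons gave 298 (Gal) and within Npy-low Ddah1 neurons 158 (Gal) and 111 (Pnoc). For Tac1-positive neurons, no low-count filter gave 532 and removal of likely doublets 156. That removal, also changed after the data were seen, did not count the chromaffin-like list, which would have left 485, 339 and 244 neurons; it left 1316, 796 and 806. It gave 2 members at least 2-fold apart between regions (Gal and Tac1) and 0 Calca-positive posterior neurons (0%). Without neuron gate genes, 0 member calls remained in other cells. Only glia and fibroblasts then had 10 cells per library, and the fibroblast calls for Calcrl and Ramp1 did not remain either.

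Shares of positive neurons in the mixed, anterior and posterior libraries became, with 1 UMI, 28.03%, 19.24% and 37.39% (Gal), 1.051%, 0.9886% and 3.179% (Calca), 16.47%, 11.41% and 19.14% (Calcb), 6.406%, 6.768% and 6.012% (Tac1) and 9.91%, 7.605% and 17.69% (Pnoc). With 1 UMI after thinning to 10000 they were 11.66%, 8.517% and 16.38% (Gal), 4.354%, 3.118% and 6.22% (Calcb), 4.855%, 3.422% and 7.809% (Pnoc), 0.3042% and 1.037% (Calca, anterior and posterior) and 4.335% (Tac1, anterior). With 3 UMIs they were 2.553%, 1.065% and 2.833% (Gal), 0.05005%, 0.07605% and 0.06911% (Calcb), 1.552%, 1.141% and 1.589% (Tac1) and 0.6006%, 0.9886% and 1.106% (Pnoc).

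Log2 fold changes that turned were Calca in Npy-low Ddah1 neurons (-0.29 with few glial UMIs, -1.091 to 2.701 with 1 library left out), and in Nos1 neurons Oprl1 (-0.14 to 0.17) and Gal (-0.164 to 0.774) with 1 library left out. In Gal-positive neurons at 3 UMIs, Galr1 was at 0.096 and Oprl1 at 0.036. In Tac1-positive neurons, 1 library left out gave -0.087 to 1.809 (Pnoc), -0.209 to 0.063 (Oprl1) and -0.84 to 0.384 (Gal), 3 UMIs gave 0.098 (Oprl1) and Npy neurons alone 0.65 (Gal). In Pnoc-positive neurons, 1 library left out gave -0.536 to 1.083 (Galr1), -1.031 to 2.656 (Calca) and -0.864 to 1.692 (Tac1), Tac1 was at -0.193 with 3 UMIs and -0.862 within Npy-low Ddah1 neurons, and Oprl1 at 0.049 there and 0.031 without likely doublets. DESeq2 turned Calcrl, at 0 UMIs, in glia (0.285) and chromaffin-like cells (2.266). Calca- and Calcb-positive neurons were not tested, since at 2 UMIs and 1 per 10000 each library held under 10 of them, and no fit at 1 UMI was run. Depth limits Tacr1, Calcrl and Calca, and cells gated outside neurons are few and shallow.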
